A study of Mus musculus with 2 samples.

Results

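The genes described here encode the ligands, receptors, SMAD proteins, extracellular regulators and direct target genes of TGF-beta, BMP and activin signalling. They were taken from a list of 48 symbols, matched to probe sets whose platform annotation names exactly 1 gene, with the probe set of the highest mean kept per gene. Of the 48 genes, 47 had a value, of 19938 genes measured in all, and each of the 47 was read by 1 probe set. Gdf15 was not analysed here. The members divide into 12 ligands, 11 receptors, 9 SMADs and SMAD corepressors, 11 extracellular inhibitors and latency proteins, and 4 target genes.

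Microarrays measured expression in cells with PDGFRα on their surface, a growth factor receptor found on fibroblasts and on precursors of adipocytes. These were sorted from the inguinal stromal vascular fraction, the cells other than adipocytes that collagenase frees from this subcutaneous white fat. The mice were female, 6 weeks old, and in both groups had been given doxycycline at postnatal day 1. The control group carried floxed Sox9 and the other group was Sox9 PreASKO. The abbreviation, the promoter that drives the loss of Sox9 and the other alleles of either group are not given in the sources used here. Each group was 1 array, per the series' design text of RNA pooled from 3 animals, so that no difference below has a replicate, an error or a test. Differences are log2 values of the PreASKO array minus those of the floxed array, and 0.58 on that scale is 1.5-fold, the limit the series itself names.

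TGF-beta family ligands are secreted dimers that bring type II and type I receptor kinases together. TGF-beta and activin receptors phosphorylate SMAD2 and SMAD3, and BMP receptors phosphorylate SMAD1 and SMAD5. Both kinds of SMAD pair with SMAD4 to act on genes, and their output is limited by inhibitory SMADs, corepressors and secreted antagonists. In fat, TGF-beta and activin A are known to hold back adipocyte differentiation, while BMP4 and BMP2 promote commitment of mesenchymal cells to the adipocyte lineage.

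Sox9, the targeted gene, was at 5.25 in floxed and 4.97 in PreASKO, a difference of -0.27 that is smaller than 1.5-fold and does not by itself separate the labels. Whether its probes lie in the deleted part was not examined here. The sorted cells carried the markers of adipose fibroblasts and precursors, and macrophage transcripts too. All 12 measured fibroblast and precursor markers were above background in both arrays, with differences from -0.31 (Pdgfra, the gene of the sorting marker) to 0.17 (Thy1). In PreASKO 9 of these markers were lower and 3 higher, with a median of -0.05. Background was marked by the 95th percentile of 1027 olfactory receptor genes, taken as silent in these cells, in the array where it was higher (4.64). All 18 macrophage markers were above it in both arrays and higher in PreASKO, with a median difference of 0.46 and a summed linear value of 9488 in floxed and 13606 in PreASKO. All 13 markers of dividing cells were lower in PreASKO, with a median of -1.14. Their summed linear value was 957 in floxed and 457 in PreASKO. Of 12 mural cell markers 8 were lower and 4 higher, beside 48.0% of all genes lower. Their median was -0.25 and their sums were 1009 and 874. Of 12 endothelial markers 7 were lower, with a median of -0.10, and 5 were below background in both arrays. Of 10 lymphocyte markers 5 were higher and 5 lower, with a median of 0.01, and 6 were below background in both arrays. The lymphocyte marker Cd3e was at 4.96 in floxed and 5.84 in PreASKO (0.88). Of 7 adipocyte markers 4 were below background in both arrays, as were 9 of 10 epithelial and mesothelial markers. In RNA from a cell mixture, fewer cells of a type and less RNA per cell cannot be told apart.

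The machinery of the pathway was measured at nearly the same levels in both groups. Of the 47 genes, 38 were above background in both arrays (80.9%, beside 55.2% of all genes), 3 in 1 array and 6 in neither. Over all 47 the median difference was -0.02, beside 0 over all genes, with 21 genes higher and 26 lower in PreASKO. These were 44.7% and 55.3% of the members, beside 48.2% of all genes higher and 48.0% lower. Only Gdf5 passed 1.5-fold, upward, and no member passed it downward. Across all genes 1.66% passed the limit upward and 1.98% downward, so that 1 of 47 is near the background. Gdf5 lay under the background mark on both arrays. When every value under the mark was set to the mark, no member passed the limit, beside 1.32% of all genes. Where a fold is given below as at least a value, it is the fold left by that step, with no error known.

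Among the 38 genes above background in both arrays the median size of the difference, whichever its sign, was 0.107, beside 0.139 over the 11015 genes of that kind. Only Tgfb1 and Bmp4 differed by more than 0.3, which is 5.26% of these members and 17.3% of those genes. As a further description, each difference was placed among the 1000 genes nearest in mean level. Of the 47 members, 46 lay inside the middle 95% of those genes, and Gdf5 lay outside it.

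**Figure D1:**
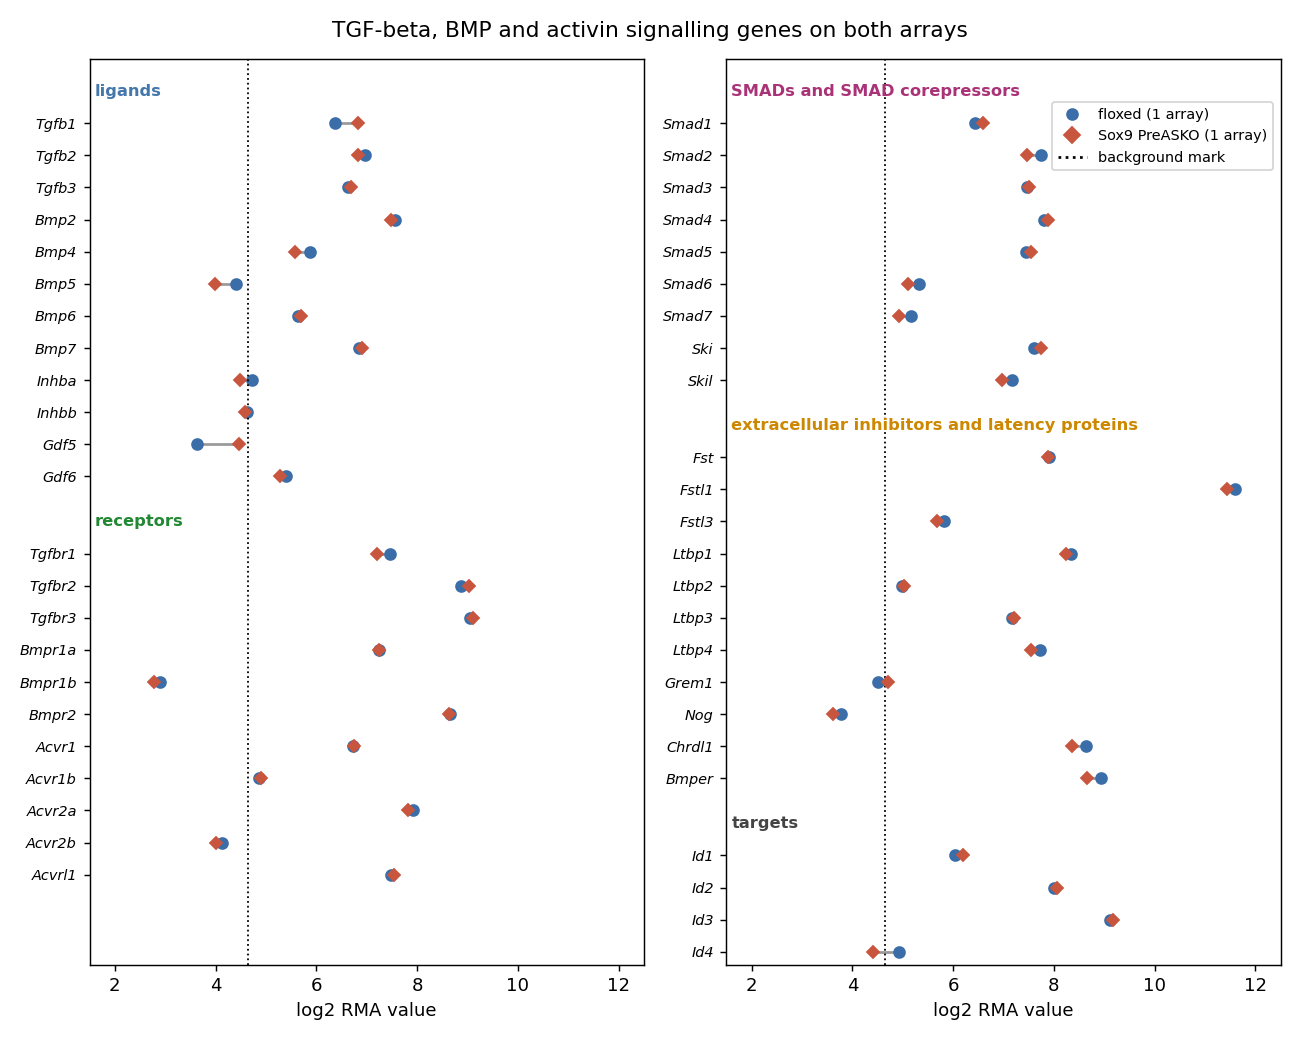
Log2 values of the 47 measured genes, grouped by role, with a blue circle for the floxed array and a red diamond for the PreASKO array. Levels of different genes come from different probes and are not to be compared. The dotted line is the background mark of 4.64, and the paired symbols lie close together except for Gdf5, Id4, Tgfb1 and Bmp5.

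The TGF-beta ligands differed from one another. Tgfb1, which encodes the form of TGF-beta that blood and immune cells make in abundance, was at 6.37 in floxed and 6.82 in PreASKO, a difference of 0.46 or 1.37-fold. It was the most positive difference among the members above background, at percentile 96.5 of genes of like level. Tgfb2 was at 6.96 and 6.83 (-0.13) and Tgfb3, which like Tgfb2 is important in the development of mesenchymal tissues, at 6.64 and 6.68 (0.04). Of the 3, Tgfb1 thus had the largest difference. The difference of Tgfb1 was the size of the median of the macrophage markers, 0.46, which were higher in the same array. The part of macrophage or lymphocyte RNA in the value of Tgfb1 was not tested.

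Of the 5 BMP genes among the members, 4 were above background in both arrays, and of these Bmp4 was the most different. Bmp4, the BMP best known for adipocyte commitment, was at 5.88 in floxed and 5.57 in PreASKO, a difference of -0.30 or 1.23-fold. That placed it at percentile 10.8 of genes of like level. Bmp2, a close relative that acts through the same receptors, was at 7.57 and 7.47 (-0.09). Bmp6 was at 5.64 and 5.69 (0.05), and Bmp7, which promotes brown fat differentiation, was at 6.84 and 6.92 (0.07). Bmp5, a relative of Bmp6 and Bmp7, was below background in both arrays at 4.40 and 3.99, so that its difference has no measured size.

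Gdf5, Gdf6 and the activin subunits were dim or below background. Gdf5, a joint and skeletal morphogen of the BMP group, was listed at 3.63 and 4.46, a difference of 0.82 between values that are both below the mark. The fold between such values is not given. Gdf6, its closest relative, was at 5.39 and 5.27 (-0.12), above the mark in both arrays. Inhba, the subunit of activin A, was above background in floxed at 4.72 and below it in PreASKO at 4.48, at least 1.06-fold lower. Inhbb, the subunit of activin B, was below it in both at 4.63 and 4.59. Neither activin subunit was above background on both arrays, while 8 of the 12 ligand genes were.

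The receptors were nearly level. Their median difference was -0.0024 over 11 genes, and 7 of the 11 differed by at most 0.1, beside 34.2% of all genes. Of the 9 receptor genes above background in both arrays, Tgfbr1 and Tgfbr2 were the most different. Tgfbr1, the type I kinase of TGF-beta, was at 7.46 in floxed and 7.21 in PreASKO (-0.25), at percentile 8.20 of genes of like level. Tgfbr2, the type II kinase that binds TGF-beta first, was at 8.87 and 9.03 (0.17), and Tgfbr3 (betaglycan), a coreceptor that presents TGF-beta2, at 9.05 and 9.10 (0.06). The kinases that act together thus differed in opposite directions, both by less than 1.5-fold.

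The BMP and activin receptors scarcely differed. Bmpr1a, the type I BMP receptor, was at 7.25 in both arrays, and Bmpr2, the type II BMP receptor, was at 8.65 and 8.64. Acvr1 (ALK2), another BMP type I receptor, was at 6.72 and 6.75, and Acvr1b (ALK4), the activin type I receptor, at 4.86 and 4.90. Acvr2a, a type II receptor shared by activins and BMPs, was at 7.93 and 7.83 (-0.10). Acvrl1 (ALK1), a receptor for BMP9 and BMP10 best known in endothelium, was at 7.49 and 7.53. Of the 12 endothelial markers 5 were higher and 7 lower, with summed linear values of 595 in floxed and 543 in PreASKO. Of these markers Kdr, a VEGF receptor gene, alone passed 1.5-fold (5.55 and 4.86, -0.69), and the part of endothelial RNA in the value of Acvrl1 was not tested. Bmpr1b (2.90 and 2.77) and Acvr2b (4.14 and 4.01) were below background in both arrays. Of the 2 type I BMP receptors named after BMP, Bmpr1a alone was therefore detected over the mark.

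All 9 SMAD and corepressor genes were above background in both arrays, and none differed by 1.5-fold. Smad2, a transducer of TGF-beta and activin, was at 7.75 in floxed and 7.48 in PreASKO (-0.28), at percentile 5.50 of genes of like level. Smad3, its partner in the same branch, was at 7.47 and 7.50 (0.04). Of the pair, Smad2 alone differed by more than 0.1. Smad1 was at 6.44 and 6.60 (0.16) and Smad5 at 7.44 and 7.54 (0.11). Both of these BMP transducers among the members were thus slightly higher in PreASKO, at percentiles 73.1 and 68.7 of genes of like level. Smad4, the common partner, was at 7.81 and 7.89 (0.08).

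Both inhibitory SMAD genes were lower in PreASKO. Smad6, which blocks mainly the BMP branch, was at 5.33 and 5.10 (-0.23), and Smad7, which blocks both branches, was at 5.16 and 4.94 (-0.22). They lay at percentiles 17.4 and 20.5 of genes of like level, so that differences of this size were common there. The corepressor genes went in opposite directions. Ski was at 7.60 and 7.74 (0.15), and Skil (SnoN), which TGF-beta itself induces, was at 7.17 and 6.98 (-0.20).

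The extracellular regulators leaned to lower values in PreASKO. Their median difference was -0.13 over 11 genes, with 8 lower and 3 higher, beside 48.0% of all genes lower. The fibroblast and precursor markers leaned the same way, with 9 of 12 lower, 3 higher and a median of -0.05. The part of fibroblast RNA in the values of the regulators was not tested. Bmper, a secreted protein that binds BMPs and can block or aid them, was at 8.95 in floxed and 8.66 in PreASKO (-0.29 or 1.22-fold). Chrdl1, a chordin-like BMP antagonist, was at 8.63 and 8.35 (-0.28 or 1.22-fold). They stood at percentiles 3.60 and 4.60 of genes of like level, the lowest such percentiles among the 47 members. Grem1, the antagonist gremlin, was below background in floxed at 4.51 and just above it in PreASKO at 4.71, and Nog, the antagonist noggin, was below it in both at 3.77 and 3.62. Both BMP-binding protein genes detected in both arrays were thus lower in PreASKO, each by less than 1.5-fold.

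The follistatin family and the latency proteins differed less. Fst, which neutralises activin, was at 7.91 and 7.89 (-0.02). Fstl3, a follistatin-like activin inhibitor, was at 5.81 and 5.69 (-0.13), and Fstl1, a secreted follistatin-like glycoprotein of mesenchymal cells, was at 11.61 and 11.44 (-0.16). The latent TGF-beta binding proteins tether inactive TGF-beta to the matrix, apart from Ltbp2, which does not bind it. Ltbp1 was at 8.34 and 8.23 (-0.11), Ltbp4 at 7.73 and 7.54 (-0.19), Ltbp3 at 7.16 and 7.21 (0.05), and Ltbp2 at 4.98 and 5.02 (0.03). All 7 of these genes were above background in both arrays and within 0.2 of level.

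**Figure D2:**
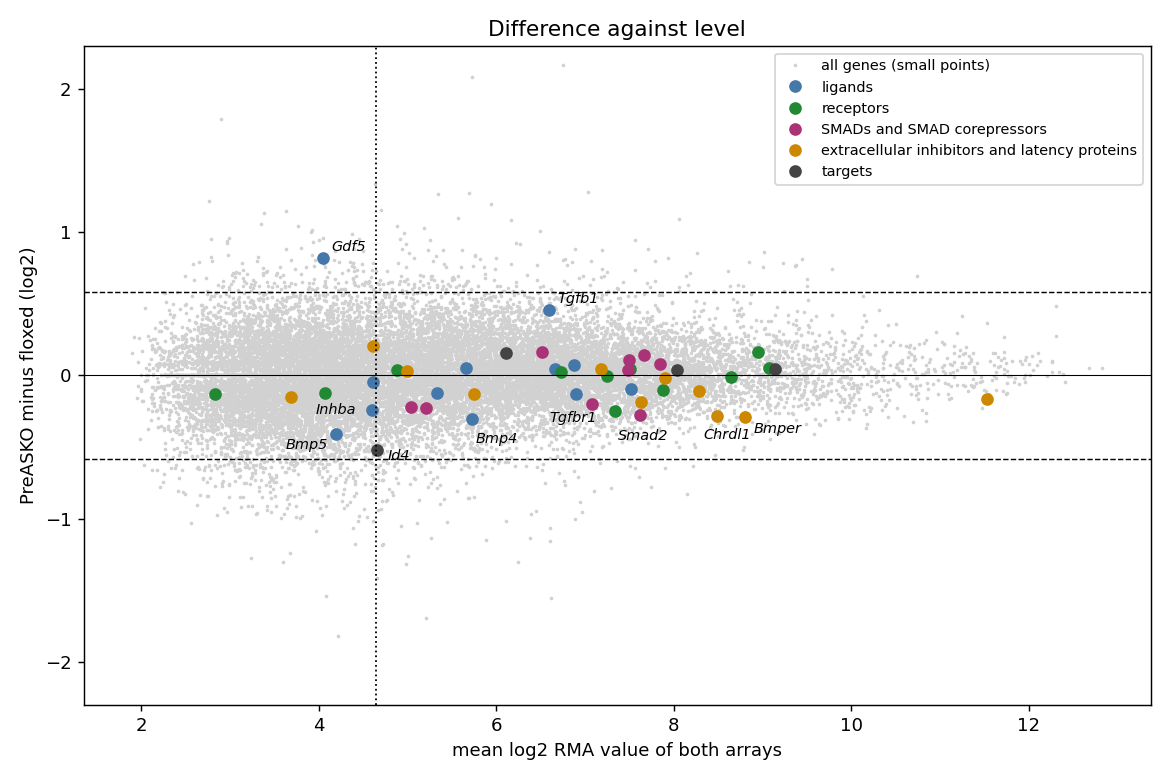
Difference between the arrays (PreASKO minus floxed, log2) against the mean log2 value of both arrays for 19938 genes (small grey points) and the 47 members (coloured by role). Dashed lines mark 1.5-fold and the dotted line the background mark, and of the members only Gdf5, left of that mark, lies beyond a dashed line.

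The Id genes, which SMAD1 and SMAD5 switch on directly and which encode inhibitors of basic helix-loop-helix factors, are in common use as a readout of the BMP branch. Id1 was at 6.03 in floxed and 6.19 in PreASKO (0.16). Id2 was at 8.01 and 8.05 (0.04) and Id3 at 9.12 and 9.17 (0.04). These 3 genes differed by less than the 1.5-fold limit and lay at percentiles 72.1, 55.3 and 52.2 of genes of like level. Id4 was above background in floxed at 4.92 and below it in PreASKO at 4.40, at least 1.21-fold lower. The size of its difference beyond that bound was not measured.

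Promoter sequences are shown for the Id genes that had one, and for Smad6, because SMADs are known to act on these genes directly. They run from 250 bases before to 50 bases after the start in RefSeq (GRCm38.p6), 5′ to 3′ on the gene's strand. Capitals mark the GC-rich motif bound by BMP SMADs (GGCGCC) or the palindromic SMAD motif (GTCTAGAC), searched on both strands.
Id2, chr12:25096043-25096342, minus strand: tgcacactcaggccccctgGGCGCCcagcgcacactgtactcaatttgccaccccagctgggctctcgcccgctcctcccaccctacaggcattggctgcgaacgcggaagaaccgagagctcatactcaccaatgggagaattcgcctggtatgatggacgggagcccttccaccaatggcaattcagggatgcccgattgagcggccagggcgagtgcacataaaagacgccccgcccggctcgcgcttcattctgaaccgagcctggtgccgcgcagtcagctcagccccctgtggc
Id3, chr4:136143572-136143871, plus strand: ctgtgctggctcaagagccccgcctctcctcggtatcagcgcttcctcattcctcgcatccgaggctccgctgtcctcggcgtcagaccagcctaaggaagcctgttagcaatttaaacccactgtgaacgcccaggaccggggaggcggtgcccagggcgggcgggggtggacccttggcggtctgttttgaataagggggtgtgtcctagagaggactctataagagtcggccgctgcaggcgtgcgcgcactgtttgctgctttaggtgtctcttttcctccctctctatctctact
Id4, chr13:48260866-48261165, plus strand: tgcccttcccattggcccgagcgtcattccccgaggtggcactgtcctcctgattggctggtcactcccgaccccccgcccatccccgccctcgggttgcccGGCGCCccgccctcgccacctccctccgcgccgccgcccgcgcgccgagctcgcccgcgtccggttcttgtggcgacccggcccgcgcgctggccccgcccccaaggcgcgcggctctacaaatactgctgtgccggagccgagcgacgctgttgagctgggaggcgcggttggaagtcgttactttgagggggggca
Smad6, chr9:64022010-64022309, minus strand: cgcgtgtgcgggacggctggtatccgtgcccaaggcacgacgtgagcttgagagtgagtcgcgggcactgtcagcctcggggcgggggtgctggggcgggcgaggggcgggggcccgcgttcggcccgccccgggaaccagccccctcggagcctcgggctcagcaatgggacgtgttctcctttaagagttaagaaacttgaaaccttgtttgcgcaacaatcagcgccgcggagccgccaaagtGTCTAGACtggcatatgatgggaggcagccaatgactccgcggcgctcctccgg
Id2 and Id4 each held 1 GGCGCC, and Id3 held neither motif in this window. The GTCTAGAC of Smad6 spans its annotated start. Among all members, 33 had 42 such windows, of which 12 (28.6%) held GGCGCC, beside 11.9% of 32851 windows of all genes. These 12 belonged to 10 genes, as a gene can have several windows. The windows were not matched for GC content, which was 60.0% to 73.3% in those shown, and the shares were not tested. GTCTAGAC was in 1 of the 42 and in 0.213% of all windows. A motif of SOX proteins (ACAATGG) was in 1 of the 42, that of Fstl3, and in 3.66% of all windows. A match is a description of the letters in the window, not of binding.

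Other genes of the pathway were taken from 7 lists with 114 symbols, of which 108 had a value. None was 1.5-fold higher and 3 were 1.5-fold lower, beside 1.66% and 1.98% of all genes, and the median difference was -0.02. The 3 were receptor-side genes. Cd109, a membrane protein that restrains TGF-beta receptors, was at 5.08 in floxed and below background in PreASKO at 4.34, at least 1.35-fold lower. Tdgf1 (cripto, a coreceptor of Nodal) and Hjv (hemojuvelin, a BMP coreceptor of iron regulation) were below background in both arrays. When values under the mark were set to it, no gene of these lists passed the limit.

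Genes that hold latent TGF-beta, process it or release it leaned lower, apart from a few genes. Of 17 measured, 14 were lower and 3 higher, with a median of -0.11, beside 48.0% of all genes lower. Of the 15 above background in both arrays 12 were lower, beside 44.8% of the 11015 genes of that kind. The fibroblast and precursor markers were also mostly lower, 9 of 12 with 3 higher and a median of -0.05. The part of fibroblast RNA in the values of this list was not tested. Fbn2, a fibrillin of the microfibrils that hold latent TGF-beta, was at 6.93 and 6.65 (-0.28), Emilin1, a matrix inhibitor of TGF-beta processing, at 6.23 and 5.97 (-0.26) and the membrane protease gene Mmp14 at 10.33 and 10.09 (-0.25). In the other direction Nrros (LRRC33), which anchors latent TGF-beta on myeloid cells, was at 6.15 and 6.69 (0.54), the protease gene Mmp9 was at 5.94 and 6.38 (0.44), and the integrin gene Itgb3 was at 7.37 and 7.40 (0.04). Lrrc32 (GARP), the anchor of regulatory T cells and platelets, was at 5.37 and 5.14 (-0.23). Nrros and Mmp9 were thus higher by amounts inside the range of the macrophage markers (0.22 to 0.81), as was Tgfb1. That range also held genes of other lists given below, such as Bmp8a (0.43), Gdf11 (0.36) and Timp3 (0.35). The part of macrophage RNA in these values was not tested.

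Known target genes of TGF-beta and activin had a median difference of 0 over 15 measured genes, 7 higher and 7 lower. Ccn2 (connective tissue growth factor) was the most different, at 7.17 in floxed and 6.69 in PreASKO (-0.48 or 1.40-fold), at percentile 1.40 of genes of like level. Pmepa1, a feedback inhibitor that TGF-beta induces, was at 8.67 and 8.36 (-0.32), and Klf10, a TGF-beta early response factor, at 6.97 and 6.72 (-0.25). Higher values were found for Timp3, a protease inhibitor (10.24 and 10.59, 0.35), for Klf11, a second early response factor (6.55 and 6.83, 0.28), and for Lmcd1, which was below background in floxed (4.56 and 4.78, at least 1.10-fold). The targets therefore lay on both sides of 0. Ccn2 is also known from mural cells, 8 of whose 12 markers were lower, beside 48.0% of all genes. The other 4 were higher, among them Notch3 (5.31 and 5.77, 0.46). Tagln was counted both among these targets and among the mural markers. The part of mural cells in the value of Ccn2 was not tested.

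Known BMP target genes apart from the Id genes had a median of -0.02 over 10 measured genes. The 7 above background in both arrays lay between -0.10 (Gata2, a transcription factor of precursors) and 0.12 (Hey1, a repressor that Notch and BMP induce). Zfp423, a zinc finger factor that couples BMP signals to preadipocyte commitment, was at 6.45 and 6.55, and Tbx3 at 5.84 and 5.93. The homeobox genes Dlx5 and Msx1 were at 5.12 and 5.09 and at 5.69 and 5.73, and Atoh8 at 5.47 and 5.42. Apart from the Id genes, the BMP targets detected in both arrays were thus all within 0.12 of level.

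Further ligands and intracellular regulators showed no gene past 1.5-fold. Among ligands above background in both arrays, Bmp8a was at 5.28 and 5.71 (0.43), Gdf11 at 5.49 and 5.85 (0.36), Gdf7 at 5.45 and 5.13 (-0.32) and Lefty1, a Nodal antagonist, at 5.41 and 5.19 (-0.22). Gdf10 (8.51 and 8.48) and the procollagen protease gene Bmp1 (8.83 and 8.80) hardly differed. Bmp8b was below background in floxed at 4.48 and above it in PreASKO at 5.06, at least 1.33-fold higher. Bmp3 was above background in floxed at 4.97 and below it in PreASKO at 4.54, at least 1.26-fold lower.

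Intracellular transducers and inhibitors had a median of 0.06 over 21 genes, 14 higher and 6 lower, beside 48.2% of all genes higher. The SMAD anchors Zfyve16 (6.53 and 6.20, -0.33) and Zfyve9 (SARA; 5.97 and 5.65, -0.32) and the ubiquitin ligase gene Smurf2 (8.10 and 7.85, -0.25) were the lowest. Nedd4l, a ligase of activated SMADs (6.38 and 6.66, 0.29), Map3k7 (TAK1, the kinase of the SMAD-independent branch; 7.35 and 7.61, 0.26) and Rnf111 (arkadia; 7.07 and 7.31, 0.24) were the highest. Among coreceptors above background, Bambi, a decoy receptor, was at 5.84 and 6.03 (0.19), Rgma, a BMP coreceptor, at 6.93 and 7.09 (0.16) and Eng (endoglin) at 6.68 and 6.71 (0.02). None of these 3 coreceptor genes differed by more than 0.2.

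Other extracellular inhibitors had a median of -0.0017 over 16 genes, of which 8 lay under the background mark on both arrays. The BMP and Wnt antagonist gene Sost was at 4.76 and 5.11 (0.35) and the BMP antagonist gene Nbl1 at 6.93 and 7.09 (0.16). Sostdc1, a relative of Sost, was below background in floxed at 4.51 and just above it in PreASKO at 4.67. In the other direction Wfikkn1, a myostatin inhibitor, was at 5.31 and 5.06 (-0.26), Twsg1, a partner of chordin, at 8.21 and 8.07 (-0.14), and Crim1 at 5.97 and 5.96 (-0.02). The decorin gene Dcn was at 12.21 in both arrays.

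**Figure D3:**
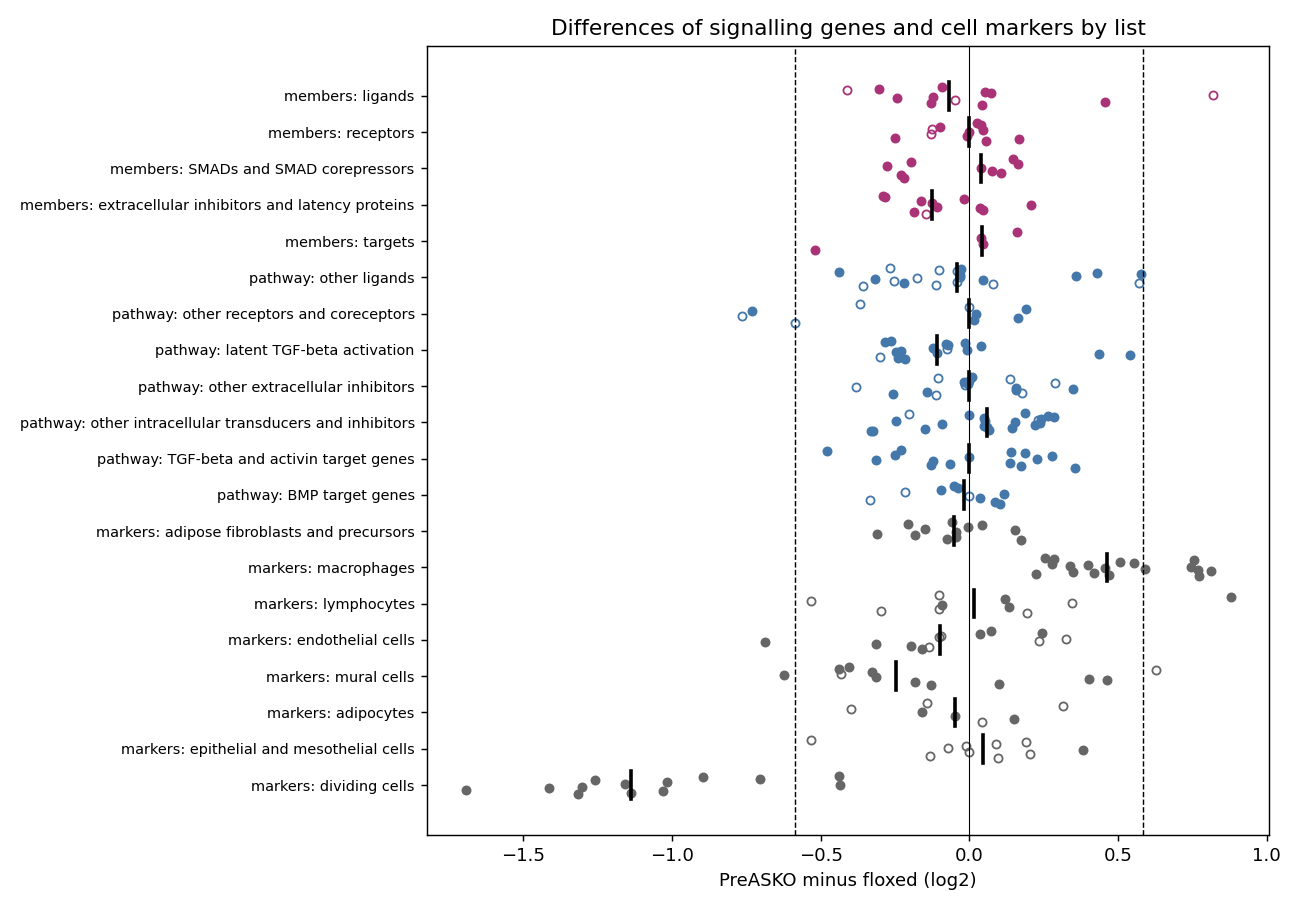
Difference between the arrays (PreASKO minus floxed, log2) for each gene of the role groups, the other pathway lists and the marker lists. Open circles are genes below background in both arrays, black bars are medians and dashed lines mark 1.5-fold. The signalling lists have medians from -0.13 to 0.06, while macrophage markers centre on 0.46 and markers of dividing cells on -1.14.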

How the data were processed

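RNA of PDGFRα+ cells was biotin-labelled and hybridised to 1 array per group. Per the submitters' processing notes the authors summarised the arrays with RMA, which subtracts background, gives the arrays a common distribution and combines the probes of a probe set. The deposited values of 35556 probe sets are taken as log2 because they run from 1.23 to 13.8. Version, filter and log base are not given in the sources used here. Scaling to a common distribution hides any shift shared by most genes, and RMA understates differences of dim genes. The number of arrays, 1 per group, limits the precision.

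Probe sets were named from the supplied platform annotation, which can be old: 21789 named 1 gene, 1621 several, and 12146 were not listed. The gene identifiers of all 47 measured members matched the same symbol in RefSeq (GRCm38.p6). In the other lists 3 older symbols were brought up to date. No test was made. Differences, counts past 1.5-fold and medians were computed in Python 3.11.15 with pandas 2.3.3, and the steps were tested on simulated data. The members, lists, naming rule, background mark and alternatives were chosen with earlier results of these data known. The naming rule was to give every member with its values, and of the other lists each gene past 1.5-fold and up to 3 genes of largest difference per direction above background. Genes named beyond it (Lrrc32, Msx1, Gdf10, Bmp1, Dcn, Kdr, Pdgfra, Thy1, Notch3, Tagln, Cd3e) were picked once their values had been seen. The alternatives tried were centring, loess on level (span 0.3), quantile normalization, values raised to background, the mean over probe sets, a limit of 2-fold, and a floor that the higher array had to reach (5.18).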

Additional observations from a re-analysis of the deposited data

How the results depend on the processing

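The difference of each member moved by at most 0.0541 under quantile normalization and 0.0343 under loess correction, and not at all under centring, where the median difference was already 0, or under the mean over probe sets, since each member had 1 probe set. Under loess 1 member changed sign, and under quantile normalization none. Raising values to background moved 8 members by over 0.1 (Bmp5, Gdf5, Bmpr1b, Acvr2b and Nog to 0, Inhba, Grem1 and Id4 towards it). The medians of the 5 role groups and of all members moved by less than 0.1 under each alternative. The count of members 1.5-fold higher, 1, became 0 with the level floor, with values raised to background and at 2-fold, and the count 1.5-fold lower was 0 throughout. Over all genes 331 higher and 394 lower became 161 and 107 with the level floor, 161 and 103 with values raised to background, and 22 and 29 at 2-fold. These shifts follow from the construction of each setting. Under quantile normalization the counts over all genes were 374 higher and 343 lower, so that the larger count changed side. In an alternative chosen after seeing the data, raising values to background took the median of the markers of dividing cells from -1.14 to -0.99 and moved no other list's median by over 0.1. With a single array in each group there was no replicate to leave out. No paired analysis was possible because the groups hold 1 array each.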
